A study of Homo sapiens with 12 samples.

Results

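The genes described here are the histone genes of the HIST1 cluster on human chromosome 6, taken as every gene of the count tables whose GENCODE 29 symbol starts with HIST1H and which lies on that chromosome. The rule gave 66 genes of the 58735 in the tables, of which 55 are protein coding and 11 are pseudogenes. They belong to 5 classes: 8 linker histone H1 genes, 17 H2A, 17 H2B, 11 H3 and 13 H4. Expression was compared in HAP1 cells, a near-haploid line that the labels describe as chronic myelogenous leukemia, between the wild type and a derivative in which SETDB1, a histone H3 lysine 9 methyltransferase, was knocked out. RNA was sequenced from 3 wild-type and 3 SETDB1 knockout replicates with a kit that does not keep the strand (non-directional), and from 3 of each genotype with a directional kit. The labels name no treatment for either genotype and do not say how many knockout clones were used or how SETDB1 was disrupted, so the comparison is between the parental line and this derivative.

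Histones H2A, H2B, H3 and H4 form the protein core around which DNA is wrapped, and H1 binds the DNA between cores. The genes of this cluster are replication dependent: they are transcribed mainly in S phase, and most of their mRNAs are not polyadenylated but end just after a conserved stem-loop that is bound by SLBP. Some of them can also give longer, polyadenylated mRNAs that continue past the stem-loop. The sources used here state that total RNA was the input and do not state whether polyadenylated RNA was selected, so the reads of both kinds of transcript cannot be told apart in a gene total.

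The stem-loop was searched for in the GENCODE 29 transcripts, because a model that runs past it can collect reads of the longer form. It was found in 20 of the 55 coding genes, with 6 different stem-loop sequences of 16 bases. The other 35 models hold no stem-loop. Many of them hold the coding part alone, as in HIST1H4A with 312 bases in GENCODE and 402 in RefSeq. A stem-loop outside the GENCODE model was not searched for, so its absence from a model is not absence from the gene. The commonest sequence stood in 9 genes. 3 examples are shown, with the stem-loop in capitals and 5 bases on either side, read from the transcript and placed on GRCh38.
HIST1H2AC stem-loop, chr6:26124664-26124689, plus strand: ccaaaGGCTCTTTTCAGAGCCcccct
HIST1H4E stem-loop, chr6:26204996-26205021, plus strand: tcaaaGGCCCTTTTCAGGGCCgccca
HIST1H4I stem-loop, chr6:27139649-27139674, plus strand: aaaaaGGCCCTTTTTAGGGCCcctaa
The HIST1H2AC model continues for 1128 bases past the stem-loop, the HIST1H4E model for 1022 and the HIST1H4I model for 212.

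The promoters of 4 genes that were higher in the knockout are shown next, since the first 2 belong to neighbouring H2B genes that moved alike and the last to a gene that was close to silent in the wild type. They are RefSeq sequences of GRCh38.p14 from 250 bases before to 50 bases after the annotated start. Capitals mark the TATA motif TATAAA, the CCAAT box and the octamer ATTTGCAT on either strand, and TATAAA on both strands can overlap to TTTATAAA.
HIST1H2BK promoter, chr6:27146809-27147108, minus strand: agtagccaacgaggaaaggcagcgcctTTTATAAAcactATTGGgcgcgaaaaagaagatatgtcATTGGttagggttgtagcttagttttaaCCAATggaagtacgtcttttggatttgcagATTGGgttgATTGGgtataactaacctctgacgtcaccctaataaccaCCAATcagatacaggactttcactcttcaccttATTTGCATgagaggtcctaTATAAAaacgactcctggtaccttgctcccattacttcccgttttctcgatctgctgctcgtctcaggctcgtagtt
HIST1H2BJ promoter, chr6:27132746-27133045, minus strand: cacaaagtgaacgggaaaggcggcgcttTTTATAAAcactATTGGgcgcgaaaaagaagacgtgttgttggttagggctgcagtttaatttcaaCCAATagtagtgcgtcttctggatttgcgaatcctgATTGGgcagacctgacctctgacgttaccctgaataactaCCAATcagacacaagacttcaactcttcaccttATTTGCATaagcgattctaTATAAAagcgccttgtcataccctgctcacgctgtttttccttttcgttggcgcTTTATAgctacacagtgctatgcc
HIST1H2AC promoter, chr6:26123922-26124221, plus strand: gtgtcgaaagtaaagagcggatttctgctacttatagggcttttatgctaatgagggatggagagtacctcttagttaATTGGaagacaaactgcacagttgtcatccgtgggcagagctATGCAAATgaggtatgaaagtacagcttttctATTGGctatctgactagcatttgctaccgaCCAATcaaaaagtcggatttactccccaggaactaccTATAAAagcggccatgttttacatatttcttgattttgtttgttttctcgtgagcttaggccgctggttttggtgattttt
HIST1H3C promoter, chr6:26045134-26045433, plus strand: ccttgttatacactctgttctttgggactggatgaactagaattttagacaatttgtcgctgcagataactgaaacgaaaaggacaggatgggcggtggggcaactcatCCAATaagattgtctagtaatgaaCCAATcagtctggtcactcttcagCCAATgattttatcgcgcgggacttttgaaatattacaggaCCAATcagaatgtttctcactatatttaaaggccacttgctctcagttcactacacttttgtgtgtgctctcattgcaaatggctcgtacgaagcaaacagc
The HIST1H2BK promoter has the octamer 46 bases and TATAAA 27 bases before the start, and the HIST1H2BJ promoter has them 47 and 28 bases before it. The HIST1H2AC promoter has TATAAA 31 bases before the start and the octamer on the opposite strand. In the HIST1H3C promoter, CCAAT was found 4 times and neither other motif was found. Over the 50 HIST1 genes with a RefSeq promoter, TATAAA was present in 66% against 11.5% of all 35116 promoters, CCAAT in 86% against 34.6% and the octamer in 44% against 1.77%. The octamer was found in 9 of 11 H2A and 12 of 15 H2B promoters, in 1 of 8 H3 promoters and in none of 6 H1 and 10 H4 promoters. Windows of H2A and H2B genes that stand head to head can share bases, so the same octamer can be counted in both classes. CCAAT was found in 3 of 10 H4 promoters and in every promoter of the other classes. These matches describe the letters of the windows and are not evidence of binding.

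The non-directional libraries held 8921959 to 10199215 gene counts, so that 3 reads correspond to 0.294 to 0.336 counts per 1000000 gene counts (CPM). The knocked-out gene was checked first. SETDB1 had 651, 543 and 519 reads in wild-type and 118, 106 and 118 in knockout libraries, a log2 fold change of -2.39 ± 0.079 (SE; edgeR quasi-likelihood test, adjusted p = 7.02e-43). The 3 knockout libraries differed from each other by less than the sampling noise (chi-square per degree of freedom 0.956 to 0.991 over 13559 to 13604 genes). The wild-type pairs gave 1.82 and 2.00 where replicate 2 took part and 1.03 between replicates 1 and 3. No knockout pair stood out from the others, so the 3 were counted as the labels give them, and the adjusted p-values rest on a knockout spread that holds little beyond counting error. Of 15 blood cell markers, 6 had 0 reads in all 6 libraries, including CD33. The summed level of these markers was 123 to 127 CPM in wild-type and 101 to 104 CPM in knockout libraries, and 4 markers could be tested: GATA2 (-0.20) and TAL1 (-2.32) fell on the log2 scale, while KIT (-0.19) and ITGA2B (0.23) did not pass the test. The summed level of 8 markers of adherent cells was 385 to 409 and 448 to 461 CPM. Of these, EPCAM rose from 3.74 to 39.7 CPM (log2 3.40) and KRT8 from 83.1 to 115 CPM, and VIM, KRT18 and COL1A1 did not pass the test. The other markers of this list, CDH1, COL1A2 and PDGFRB, had too few reads for a test. Their means were 1.10, 0.22 and 0.18 CPM in wild-type and 0.41, 0 and 0 CPM in knockout libraries. The part of these markers in the histone results was not tested.

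Of the 66 HIST1 genes, 18 had 0 reads in all 6 non-directional libraries and 32 had fewer than 10 reads in each of them. After the filter on low counts, 31 genes were tested, all of them coding: 3 H1, 5 H2A, 11 H2B, 5 H3 and 7 H4 genes. At an adjusted p under 0.05 in edgeR, 10 were higher in the knockout (32.3%), where 25.5% of all 13778 genes tested were higher. A further 4 were lower (12.9%), where the share over all genes tested was 25.9%. In both directions together 14 of 31 were called (45.2%) against 51.5% of all genes, so the share of changed genes in the cluster was not above that of the whole table. HIST1H3C and HIST1H2BB passed the filter through their knockout libraries alone. Without them 8 of 29 genes were higher (27.6%) and 4 lower (13.8%), so that the share of higher genes was close to that of the table. Genes of that kind were not taken out of the table's shares, so the sets are not fully alike. In bulk RNA a difference in the share of cells in S phase and one in the amount of histone mRNA per cell cannot be told apart. The number of lower genes was 8 without wild-type replicate 3 and 7 without knockout replicate 2. The median log2 fold change was 0.045 over the 31 genes, -0.0012 over all genes tested and 0.0021 over 699 tested genes of chromosome 6. A rise of at least 1 on the log2 scale was called in 5 genes (16.1%), and in 3.61% of all genes tested. Without HIST1H3C and HIST1H2BB, 3 of 29 remained, while such genes were not taken out of the 3.61%. Where groups of a called gene are said below not to overlap, this describes the libraries that gave the call. The share of non-overlapping genes over all genes tested was not counted.

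**Figure D1:**
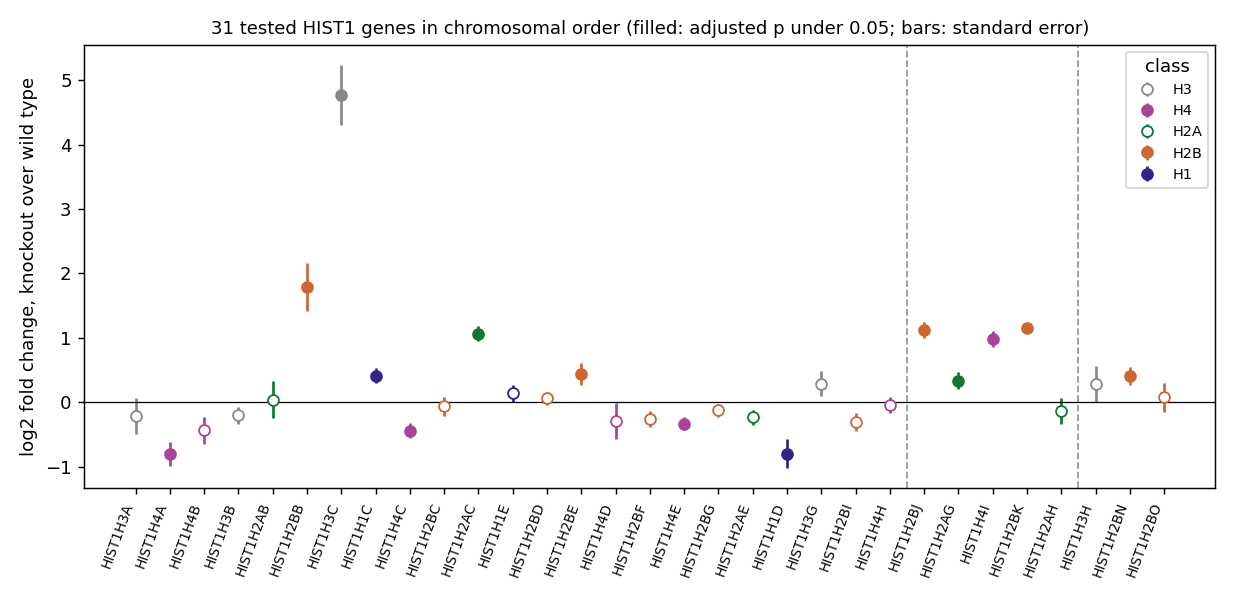
The log2 fold change of knockout over wild type is plotted for the 31 tested HIST1 genes in their order along chromosome 6, with bars for the standard error, colours for the histone class and dashed lines at the 2 long gaps of the cluster. Filled points have an edgeR adjusted p under 0.05: 10 lie above 0 and 4 below, and 4 of the 5 genes between the dashed lines are filled and above 0.

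H2B genes, which encode one of the core histones, contributed the most reads and 5 of the 10 rises. These were 45.5% of the 11 tested H2B genes, beside 25.5% of all genes tested. They include HIST1H2BB, which passed the filter through its knockout libraries alone and was not taken out of this share. HIST1H2BK was the most highly expressed HIST1 gene per length, with 82.2 reads per kb of exon per 1000000 gene counts in the wild type. Its model (chr6:27146418-27146798, minus strand, 1 exon) covers the coding part. It had 322, 290 and 281 reads in wild-type and 673, 681 and 728 in knockout libraries, so the groups were far apart, and its log2 fold change was 1.15 ± 0.059 (SE, adjusted p = 4.28e-30 in edgeR). Only 25.9% of the 50-base words of its 381-base model occur in no other gene. Of its words, 61.4% are shared with H2BFS, an H2B gene annotated in 2 copies on chromosome 21, so its level is uncertain by the reads that could not be placed. HIST1H2BJ had 72, 67 and 60 reads in the wild type against 141, 167 and 147, and rose by 1.12 ± 0.12 (SE, adjusted p = 3.29e-13 in edgeR). HIST1H2BB was low, with 8, 5 and 3 reads against 14, 19 and 26. Its groups did not overlap, and the ratio of its summed reads per 1000000 was 3.54 (95% exact interval 2.01 to 6.59, which covers counting error only; edgeR adjusted p = 2.66e-05). HIST1H2BE and HIST1H2BN rose by 0.44 and 0.41 (edgeR adjusted p = 0.0233 and 0.0118). Both overlap other genes, HIST1H2BE an RNA gene (AL353759.1) and HIST1H2BN the H2A genes HIST1H2AK and HIST1H2AL, so their counts are uncertain by the reads that fall there. Their calls were lost in 4 and 3 of 11 other fits.

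The remaining 6 tested H2B genes did not pass the test, with log2 fold changes of -0.30 to 0.08. Among them HIST1H2BI, the second of its class by reads per kb, had 99, 75 and 74 reads in wild-type and 65, 78 and 68 in knockout libraries, and the groups overlapped. No H2B gene was called lower.

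Of the 5 tested H2A genes, which encode the partner of H2B in the core, 2 were higher (40%) and none was lower. The shares of all genes tested were 25.5% and 25.9%. HIST1H2AC had 87, 78 and 83 reads in wild-type and 202, 162 and 181 in knockout libraries, a rise of 1.07 ± 0.11 (SE, adjusted p = 7.31e-14 in edgeR). All its knockout libraries lay above all wild-type libraries, in the same values that gave the call. HIST1H2AG rose by 0.33 (edgeR adjusted p = 0.0283), a call that was lost in 6 of 11 other fits. HIST1H2AE, the H2A gene with the most reads per kb, had 127, 93 and 107 against 100, 90 and 102 reads. Per 1000000 counts its groups did not overlap, and its log2 fold change of -0.23 did not pass the test (edgeR adjusted p = 0.0957). HIST1H2AH had 33, 35 and 43 against 40, 33 and 33, which overlapped, with a log2 fold change of -0.13.

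H3 genes carried the largest single difference. HIST1H3C (chr6:26045411-26045821, plus strand, 1 exon) had 1 read in each wild-type library and 39, 25 and 32 reads in the knockout. The ratio of summed reads per 1000000 was 30.7 (95% exact interval 10.2 to 151, counting error only; edgeR adjusted p = 5.95e-15). The fitted log2 fold change of 4.77 depends on the prior count that edgeR adds. The 4 other tested H3 genes did not pass the test. HIST1H3B, the H3 gene with the most reads per kb, had 86, 95 and 89 reads in wild-type and 86, 81 and 79 in knockout libraries. HIST1H3A had 20, 18 and 16 against 14, 17 and 18. In both, the groups overlapped. A pair of H3 genes under the filter showed the opposite direction: HIST1H3J had 18, 11 and 8 reads against 3, 3 and 5, and HIST1H3E had 5, 6 and 10 against 2, 1 and 0. In the edgeR fit without the filter their log2 fold changes were -1.79 and -2.73 (adjusted p = 0.000398 and 0.000912), and these genes were named after their values had been seen.

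H4 was the class with the most falls, 3 of 7 tested genes (42.9%), beside 1 rise (14.3%). Of all genes tested 25.9% were lower and 25.5% higher, and a class of 7 genes is small for such shares. HIST1H4A had 66, 48 and 44 reads in wild-type and 28, 36 and 31 in knockout libraries, a log2 fold change of -0.80 ± 0.19 (SE, adjusted p = 0.000188 in edgeR). HIST1H4C, the H4 gene with the most reads per kb, had 133, 103 and 116 reads against 102, 94 and 76, and its log2 fold change was -0.44 ± 0.12 (SE, adjusted p = 0.00144 in edgeR). HIST1H4E had 159, 172 and 152 reads against 138, 143 and 121 (log2 -0.33 ± 0.10 SE, edgeR adjusted p = 0.00464). In all 3 genes every knockout library was lower than every wild-type library per 1000000 counts. These are the values that gave the calls, so this is no separate support. The call of HIST1H4E was lost without wild-type replicate 2 (edgeR adjusted p = 0.0655) and without knockout replicate 3 (0.0678). HIST1H4I went the other way, with 65, 67 and 64 reads in wild-type and 131, 124 and 152 in knockout libraries, a rise of 0.98 ± 0.12 (SE, adjusted p = 1.09e-10 in edgeR). It lies within the RefSeq span of HIST1H2BK on the opposite strand. These counts can hold reads of both strands, so the rise cannot be assigned to an H4 mRNA.

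The linker histone genes split. HIST1H1C had 95, 78 and 85 reads in wild-type and 120, 113 and 127 in knockout libraries, a rise of 0.41 ± 0.12 (SE, adjusted p = 0.00218 in edgeR). HIST1H1D had 33, 41 and 39 reads against 16, 26 and 26, a log2 fold change of -0.80 ± 0.22 (SE, adjusted p = 0.00166 in edgeR). The groups did not overlap in either gene, in the same values that gave the calls. HIST1H1E had 83, 71 and 85 against 101, 76 and 99 reads, which overlapped, and its log2 fold change of 0.14 did not pass the test.

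**Figure D2:**
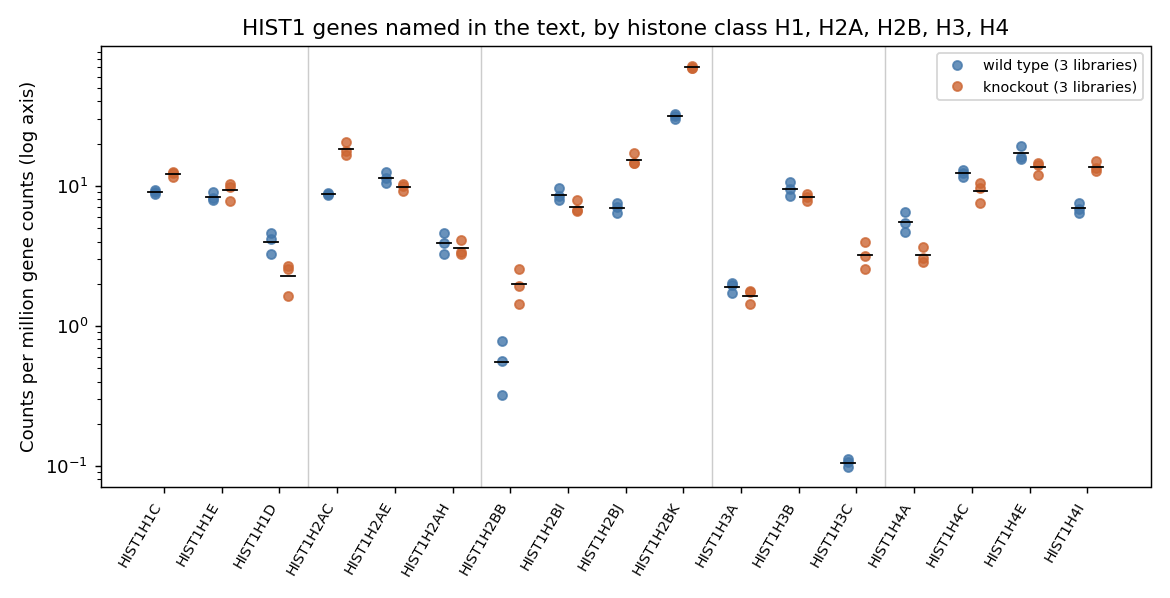
Counts per 1000000 gene counts, on a log axis, are shown for the 17 HIST1 genes given with every library, ordered by histone class, with a point per library and a line at the mean of 3. HIST1H3C and HIST1H2BB are the lowest in the wild type and stand clearly higher in the knockout, HIST1H2BK is the highest in both, and HIST1H4A and HIST1H1D are lower in the knockout.

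Summed over all 66 genes, the cluster gave 244 ± 8.27 CPM in wild-type and 302 ± 4.24 CPM in knockout libraries (SD, n = 3 each), a ratio of 1.24. The summed level did not overlap between the groups. H2B genes held 45.9% of the cluster's reads in wild-type libraries and 53.0% in knockout libraries, rising from 112 ± 5.32 to 160 ± 3.41 CPM. The H2A sum was 33.8 ± 0.529 against 43.9 ± 3.23 CPM. The sums of H1, H3 and H4 overlapped between genotypes, at 21.6 and 24.0, 18.9 and 20.1, and 57.4 and 53.7 CPM. The higher total rested on few genes. Without HIST1H2BK the ratio was 1.09, and without HIST1H2BK, HIST1H2BJ, HIST1H2AC and HIST1H4I it was 0.971 with overlapping groups. These 4 genes were left out after their values had been seen.

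The 66 genes fell into 3 groups by position, separated by gaps of 804 and 660 kb. The first (43 genes, chr6:25726132-26322292) gave 174 ± 4.97 CPM in wild-type and 175 ± 4.51 in knockout libraries. Of its 23 tested genes 5 were higher (21.7%) and 4 lower (17.4%), beside 25.5% and 25.9% of all genes tested. The 5 include HIST1H3C and HIST1H2BB, which passed the filter through their knockout libraries alone. The second is short, 5 genes in 21.6 kb (chr6:27125897-27147515), in the order HIST1H2BJ, HIST1H2AG, HIST1H4I, HIST1H2BK and HIST1H2AH. All 5 were tested and 4 were higher (80%). The sum of this group rose from 56.4 ± 2.40 to 112 ± 1.50 CPM, a ratio of 1.98. Among the 4, HIST1H4I lies within the RefSeq span of HIST1H2BK, so its counts can hold reads of both strands. The third (18 genes, chr6:27807075-27893843) gave 12.8 ± 1.94 and 14.7 ± 1.25 CPM, which overlapped, with 1 higher of 3 tested (33.3%). The total of the second group was therefore larger by 55.4 CPM of the 58.0 CPM by which the whole cluster was larger, although it held 23.2% of the cluster's reads in the wild type. The grouping used positions alone, and it was described with the fold changes known.

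**Figure D3:**
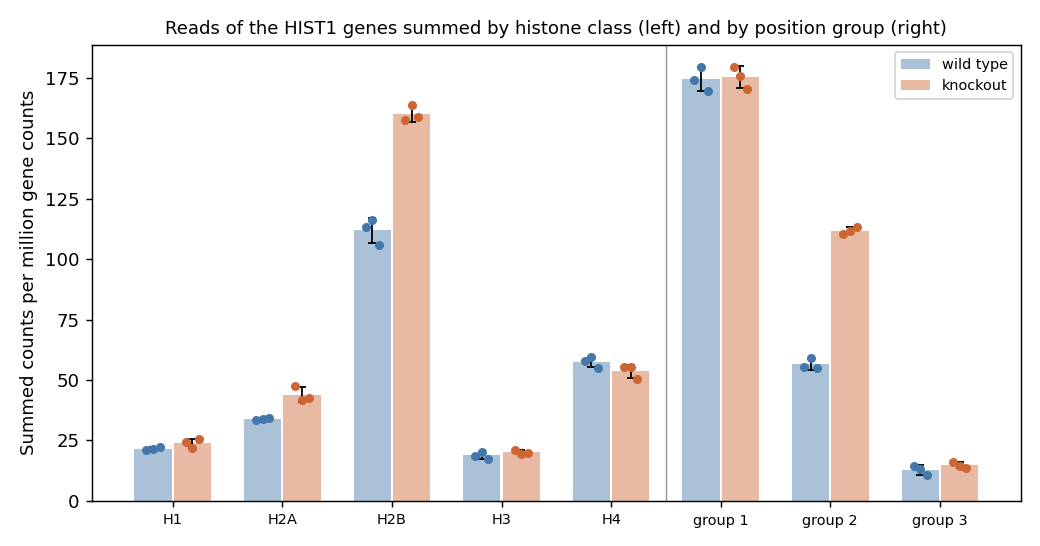
Summed counts per 1000000 gene counts are drawn for the 5 histone classes on the left and the 3 position groups on the right, with bars for the mean, error bars for the SD and points for the 3 libraries of each genotype. The knockout points lie above the wild-type points without overlap for H2A, H2B and the second position group, and overlap with them elsewhere.

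Many H2A and H2B genes stand head to head, with a common region between their starts. Within 1000 bases, 14 head-to-head pairs of HIST1 genes were found, 13 of them of an H2A and an H2B gene, with HIST1H2BO in 2 pairs. In 4 pairs both genes were tested. Comparing 2 genes of a pair within each library removes the library's depth. The ratio of HIST1H2BC to HIST1H2AC reads was 0.788 ± 0.056 in wild-type and 0.359 ± 0.012 in knockout libraries (SD, n = 3 each). HIST1H2BJ over HIST1H2AG was 0.956 ± 0.054 against 1.66 ± 0.16, and HIST1H2BK over HIST1H2AH was 8.19 ± 1.61 against 19.8 ± 2.71. In these 3 pairs the groups did not overlap (two-sided exact permutation p = 0.1 each, the smallest that 3 against 3 allows, and 0.133 after Benjamini-Hochberg adjustment over 4 pairs). No pair could have passed 0.05 in this test. Each of the 3 pairs holds a gene called higher from the same counts. The share of such separated ratios over other gene pairs was not counted. HIST1H2BG over HIST1H2AE was 1.56 ± 0.32 against 1.65 ± 0.24 and overlapped (exact p = 0.7). In HIST1H2BC and HIST1H2AC, with starts 219 bases apart, the log2 fold changes were -0.06 and 1.07. In the pair of HIST1H2BJ and HIST1H2AG both genes were called higher, by 1.12 and 0.33, and in that of HIST1H2BK and HIST1H2AH only the former was called. The pairs were compared after the members' values had been seen.

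**Figure D4:**
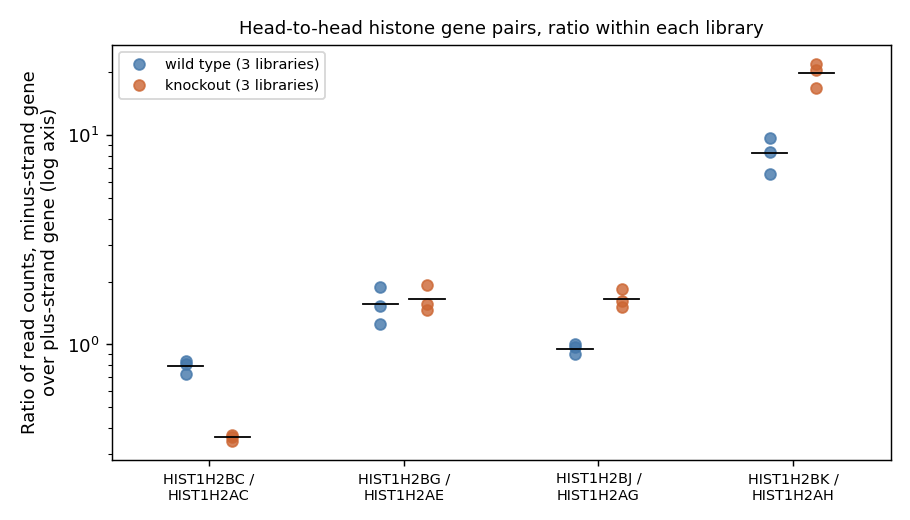
The ratio of reads of the minus-strand gene to reads of the plus-strand gene is plotted on a log axis for the 4 head-to-head pairs with both genes tested, with a point per library and a line at the mean of 3. The ratio is lower in every knockout library for HIST1H2BC over HIST1H2AC, higher in every knockout library for HIST1H2BJ over HIST1H2AG and HIST1H2BK over HIST1H2AH, and overlaps for HIST1H2BG over HIST1H2AE.

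The gene models give a partial view of transcript ends. Of 7 tested genes with more than 1 exon in their model, 4 were higher and none lower, and of 24 with 1 exon, 6 were higher (25%) and 4 lower (16.7%), beside 25.5% and 25.9% of all genes tested. Among the 4 higher genes with several exons, the calls of HIST1H2BE and HIST1H2BN were lost in some of the other fits. The 6 higher genes with 1 exon include HIST1H3C and HIST1H2BB, which passed the filter through their knockout libraries alone. The sum over the 9 genes with several exons was 59.9 ± 0.406 CPM in wild-type and 80.4 ± 4.21 in knockout libraries (ratio 1.34), and over the 46 single-exon genes 183 ± 7.85 and 220 ± 0.673 CPM (ratio 1.20). Without HIST1H2BK the single-exon ratio was 0.989, with overlapping groups. The several-exon sum holds HIST1H2AC (8.7 to 18.3 CPM) and HIST1H2BJ (7.0 to 15.3 CPM) and was not recomputed without them. The ratios 1.34 and 0.989 are therefore not alike. The split by exons follows the GENCODE models and need not hold in another annotation. HIST1H2BK spans 381 bases in GENCODE and 8566 in RefSeq. The 4 higher genes with several exons, HIST1H2AC, HIST1H2BJ, HIST1H2BE and HIST1H2BN, span only 470 to 542 bases in RefSeq. Among the other genes with several exons, HIST1H2BC, HIST1H2BD and HIST1H3E are long in both. The split was not repeated with RefSeq models. Genes whose model runs past the stem-loop gave a ratio of 1.10 and those with no stem-loop in the model a ratio of 1.40. The latter fell to 1.07 without HIST1H2BK, so the order of these ratios rested on that gene, which was left out after its values had been seen. Whether the extra reads lie before or after the stem-loop cannot be told apart from gene totals.

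Some zeros in the cluster come with an overlapping gene. The exons of HIST1H3D and HIST1H2AD lie within AL031777.3 on the same strand and both had 0 reads in every library. HIST1H2AK, also at 0 in the non-directional libraries, lies inside HIST1H2BN on the opposite strand. Reads that touch 2 genes were listed as ambiguous (8.37% to 8.41% of listed reads), so no statement on these genes is possible.

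In the directional tables HIST1H4I stood apart from every other HIST1 gene. It had 91, 80 and 74 reads in wild-type and 253, 223 and 259 in knockout libraries, which was 7.12 ± 0.812 and 22.2 ± 2.51 reads per 1000000 listed reads (SD, n = 3 each). In the non-directional tables the same gene had 5.54 ± 0.461 and 11.0 ± 0.948 reads per 1000000 listed reads. The 65 other genes together had 25 to 40 reads per directional library, and 33 genes had 0 in all 6. HIST1H2BK, with 25.2 and 56.2 reads per 1000000 listed reads in the non-directional tables, had 0 to 2 reads per directional library. The directional tables place 5.23% to 5.30% of listed reads in genes, and over 8278 tested genes with no exon on the opposite strand they hold a median of 0.565% of the non-directional reads per listed read. The median was 1.42% over 5500 genes with such an exon and 0.508% over the 31 tested HIST1 genes. The strand setting of the count is not given in the sources used here. The directional reads of HIST1H4I were therefore not assigned to its own strand, and they are no separate support for a rise of its mRNA. HIST1H4I lies on the plus strand inside the span of the 8566-base RefSeq model of HIST1H2BK (H2BC12), which is on the minus strand, so reads of both strands cannot be told apart in its non-directional counts.

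**Figure D5:**
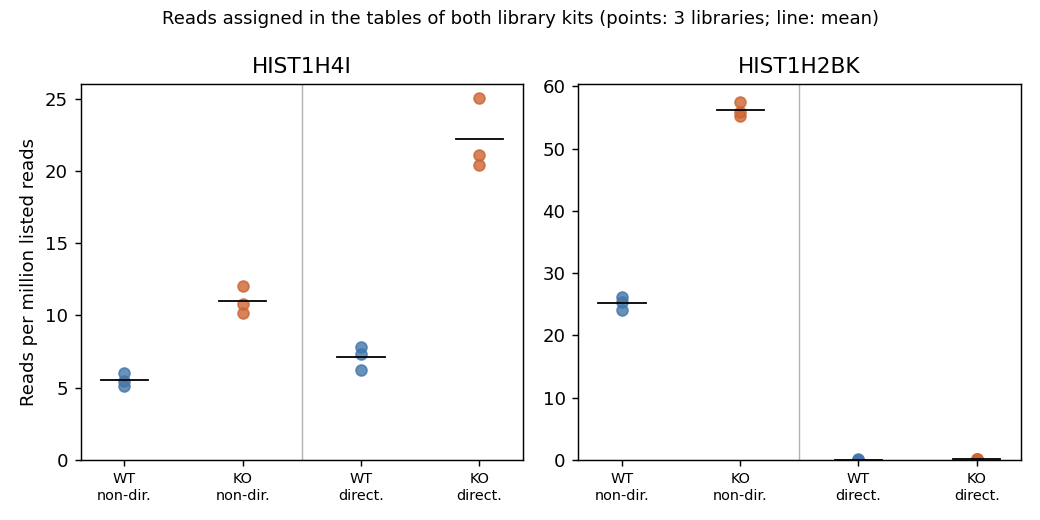
Reads per 1000000 listed reads of HIST1H4I (left) and HIST1H2BK (right) are plotted for wild type (WT) and knockout (KO) in the non-directional and the directional tables, with a point per library and a line at the mean of 3. The reads listed for HIST1H4I are higher in the knockout in both kits and reach 22.2 in the directional knockout libraries. Those listed for HIST1H2BK are near 0 in the directional tables, whose counted strand is not given.

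Other histone genes moved mainly down. Of 22 genes of the HIST2, HIST3 and HIST4 loci, 9 were tested, with a median log2 fold change of -0.77. Of these, 6 were lower (66.7%) and 1 was higher (11.1%), beside 25.9% and 25.5% of all genes tested. HIST2H3D had 17, 17 and 15 reads against 4, 4 and 4 (log2 -2.06 ± 0.40 SE, edgeR adjusted p = 8.46e-06), HIST2H2AB changed by -1.06 and HIST2H2AC by -1.05. HIST2H3D passed the filter on low counts through its wild-type libraries alone. The 6 tested HIST2 genes were all lower (median -1.02), and so were 76 of 108 tested non-histone genes within 5000000 bases of HIST2H2BE on chromosome 1, whose median was -0.44. Their part in each other's values was not tested. Variant histone genes outside these clusters, most of which are expressed throughout the cell cycle from polyadenylated mRNAs, summed to 1809 ± 8.89 CPM in wild-type and 1560 ± 12.5 in knockout libraries (SD, n = 3 each). Of 10 tested variant genes 7 were lower (70%) and 1 was higher (10%). The largest falls were in H2AFY2 (-0.93), H1FX (-0.53) and H2AFY (-0.38).

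Of 20 genes for the making of replication-dependent histone mRNA, 4 were higher (20%) and 6 lower (30%), which is near the 25.5% and 25.9% of all genes tested. SLBP, the stem-loop binding protein, had a log2 fold change of -0.21 ± 0.036 (SE, adjusted p = 5.10e-07 in edgeR), and NPAT, the cyclin E/CDK2 substrate that activates histone transcription, -0.0022 ± 0.067 (SE, adjusted p = 0.982 in edgeR). SNRPE, a component of the Sm ring, fell (-0.55), HINFP, an activator of H4 genes, rose (0.41) and GON4L fell (-0.30). Of 15 histone chaperone genes 4 were higher (26.7%) and 3 lower (20%), again near the shares of all genes, with RBBP7 at -0.35. Of 35 S phase genes 8 were higher (22.9%) and 16 lower (45.7%), beside 25.5% and 25.9% of all genes tested (median -0.06). Their summed level was 7588 ± 101 CPM in wild-type and 7582 ± 33.2 in knockout libraries. The largest changes were in CCNE2 (-0.87), GINS3 (0.41) and MCM5 (0.30). Of 21 genes of G2 and M phase 2 were higher (9.52%) and 9 lower (42.9%), with NUSAP1 at -0.37. The part of the cell cycle in the histone values was not tested.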

How the data were processed

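Gene expression was measured in 12 libraries of HAP1 cells, 4 groups of 3 by genotype and library kit, as the sample titles give them. The publication named in the header concerns another organism and assay and not these libraries, and it was used for nothing but style of writing. The authors deposited a table of raw read counts per gene for each library, unnormalized, in the layout of HTSeq. The submitters' processing notes name Trim Galore 0.4.4, STAR 2.6.0a, SAMtools 1.9, Picard 2.23.8, HTSeq 0.11.1, bedtools and hg38, without their settings. Deposited L1 tables were not used here. Gene IDs were matched to GENCODE 29, and lines that name no gene stayed out of library sizes (4.00% to 4.40% in no gene, 6.86% to 7.19% not unique in the non-directional libraries).

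The 6 non-directional libraries were tested with edgeR 4.0.16 (R 4.3.3): filterByExpr with a minimum count of 10 and total of 15, TMM scaling, the quasi-likelihood F-test and Benjamini-Hochberg adjustment over 13778 genes at 0.05. The standard error was taken as the absolute log2 fold change over the square root of F. The fit was tested on simulated data. CPM and reads per kb used total gene counts and merged exon lengths. These lengths differ between models that hold the coding part alone and longer models, so the rankings by reads per kb depend on them. Uniqueness was the share of 50-base words found in no other GENCODE gene. Intervals of read ratios are exact at 95% and cover counting error only. Directional tables were described per 1000000 listed reads, with no test. In each class the 2 genes with the most reads per kb, and the 6 largest rises and falls among the genes called, were given with every library; of other lists, SLBP, NPAT and up to 3 called genes. The members and lists were chosen with earlier results of these data known. Alternatives were DESeq2 1.42.0 size factors, its Wald test, no filter, a replicate block, the knockout libraries summed as 1, a fold threshold and leaving out each library.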

Additional observations from a re-analysis of the deposited data

Results flagged for a closer look

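HIST1H4I was the HIST1 gene with reads above the control level in data that the tests did not use. In the directional knockout libraries it had a mean of 22.2 reads per 1000000 listed reads, against 7.12 in the directional wild-type libraries, and the 3 libraries of each genotype did not overlap. This was the result picked out by the search for signal outside the main measurement. The gene lies within the RefSeq span of HIST1H2BK on the opposite strand, and the strand that was counted is not given in the sources used here. These reads are therefore no separate support for a rise of HIST1H4I mRNA.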

How the results depend on the processing

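Of the 14 calls, 10 were kept in all 11 other fits. HIST1H2AG lost its call in 6, HIST1H2BE in 4, HIST1H2BN in 3 and HIST1H4E in 2. With a log2 fold change of at least 1 also required, 5 HIST1 genes were higher and 0 lower, and the calls left were 3 for HIST2, HIST3 and HIST4 genes, 5 for neighbouring genes and 0 each for variants, mRNA processing, chaperones, S phase and G2/M genes, since only changes of that size count. Leaving out 1 library gave 7 to 10 genes higher and 3 to 8 lower: 8 lower without wild-type replicate 3 and 7 without knockout replicate 2. Without wild-type replicate 1, 7 of the neighbouring genes were called, and leaving out any library gave 7 to 11. With the knockout libraries counted as 1, 7 G2/M genes were called. The summed level changed from a log2 ratio of 0.31 to 0.13 without HIST1H2BK, chosen after seeing the data. In genes that were not called, leaving out 1 library turned the sign of the log2 fold change of HIST1H2AB (-0.11 to 0.21, with -0.060 without knockout replicate 2 and -0.033 without knockout replicate 3), HIST1H2BC (-0.16 to 0.032), HIST1H4H (-0.13 to 0.0078) and HIST1H2BO (-0.014 to 0.20). The cause was not tested. With the replicate block, 14 HIST1 genes were called, the same 14. The replicate numbers did not pair the samples (correlations of deviations -0.0038, -0.0059 and -0.018). Scaling moved the median of all genes by under 0.1. The filter on low counts left 31 HIST1 genes to test, and 48 were tested without it.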

Other observations

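Of 64 non-histone genes among and beside the histone genes 17 were tested, with a median log2 fold change of -0.11. Of these, 8 were lower (47.1%), 3 were higher (17.65%) and 6 were not called. ZNF204P and AL021807.1, described below, are among the higher genes and passed the filter on low counts through their knockout libraries alone. Genes of that kind were not taken out of these shares. Of all genes tested 25.9% were lower and 25.5% higher. BTN3A3, a butyrophilin that takes part in the activation of gamma delta T cells, had 112, 107 and 147 reads in wild-type and 6, 11 and 13 in knockout libraries (log2 -3.66 ± 0.21 SE, edgeR adjusted p = 1.98e-27). Its relative BTN3A2 had 275, 279 and 246 against 84, 78 and 106 reads (log2 -1.65 ± 0.10 SE, edgeR adjusted p = 2.29e-25). ZNF204P, a zinc finger pseudogene, had 0 reads in each wild-type library and 14, 21 and 19 in the knockout, which is at least 17.2-fold higher against a floor of 3 counts over the wild-type group. AL021807.1, a long non-coding RNA gene beside the second position group, had 6, 4 and 3 against 17, 11 and 12 reads (log2 1.53 ± 0.42 SE, edgeR adjusted p = 0.00147) and was named after its values had been seen.

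The promoters of HIST1H2BJ and HIST1H2BK were 74.4% identical in a global alignment of the RefSeq windows, the second highest of 105 pairs among 15 H2B promoters. The median of these pairs was 53.0%, and the highest was 82.2% for HIST1H2BL and HIST1H2BM, which had too few reads for a test.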
